A study of Mus musculus with 2 samples.

Results

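The genes described here are the 8 members of the interleukin-12, interleukin-27 and interleukin-18 axis, taken by symbol from the count matrices. They are Il12b, Il12rb1, Il12rb2, Il27, Ebi3, Il18, Il18r1 and Il18rap, and all 8 were among the 27998 genes of each matrix. The libraries held immune cells sorted from B16Ova flank tumors, a mouse melanoma that carries ovalbumin, on day 13. The KO library came from female Tcf7 cKO mice (E8i-cre+, Tcf7 FL/FL), and the WT library from female wildtype mice (E8i-cre-, Tcf7 FL/FL), so both groups carried the floxed alleles. E8i-cre is a transgene driven by a Cd8a enhancer and is active in mature CD8 T cells. Each library mixed cells of 3 tumors from 4 sorted categories, namely a gate for dendritic cells (DCs), a gate for other CD45+ cells, and the CD4 and CD8 T cell gates, and the barcodes do not tell the tumors apart. With 1 library per group there were no replicates and no test of KO against WT, so each value stands for 1 library, and its 95% interval covers counting error only.

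Interleukin-12 is a heterodimer of the Il12b and Il12a products, made mainly by activated DCs and macrophages, and it signals through the receptor chains Il12rb1 and Il12rb2 to STAT4. Interleukin-27 joins the Il27 and Ebi3 products and signals through Il27ra and Il6st. Interleukin-18 is made as a precursor that the inflammasome protease caspase-1 cleaves, and it binds Il18r1 with the accessory chain Il18rap to signal through Myd88. Interleukin-12 and interleukin-18 together are strong inducers of interferon-gamma in T and natural killer (NK) cells.

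The KO library had 1219 barcodes and 11758449 UMIs (unique molecular identifiers, counted as molecules), and the WT library had 1120 barcodes and 9283014 UMIs. After filters 1083 KO cells with a median of 8117 UMIs and 983 WT cells with a median of 6168 UMIs remained, and the libraries shared 1 barcode. Tcf7, the targeted gene, was at 53.5 CPM (108 UMIs) in KO CD8 T cells and 155 CPM (191 UMIs) in WT CD8 T cells, where CPM scales a gene's UMIs, summed over the cells of a class, to a common total of all UMIs of those cells. Naive-like CD8 T cells had 309 CPM of it in KO and 407 CPM in WT (ratio 0.54 to 1.06), an interval that includes 1. CD8 cells of a cluster led by Gzmk had 138 CPM of Tcf7 in KO and 244 CPM in WT (0.34 to 0.90). Cycling CD8 T cells had 7.50 CPM in KO and 36.5 CPM in WT (0.08 to 0.52). CD8 cells of a cluster led by Ccl1 had 19.2 CPM in KO and 23.9 CPM in WT (0.26 to 2.68). Tcf7 was also lower in CD4 T cells, at 86.0 CPM in KO and 135 CPM in WT (0.49 to 0.82). The removed exons are not given in the sources used here, so these reads check the deletion only in part. Cells were named by marker genes, so each name stands for cells like that type. There were 184 KO and 169 WT CD8 T cells, 176 and 176 CD4 T cells, 189 and 178 type 1 conventional DCs (cDC1s), 92 and 48 type 2 conventional DCs (cDC2s), 60 and 98 mature DCs, 69 and 69 macrophages, and 92 and 28 monocytes. The NK-like cluster held 27 KO and 18 WT cells, and 59.3% of KO and 66.7% of WT cells in it had a Cd3e UMI, so T cells with NK genes were part of it.

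Il12b, which encodes the shared subunit of interleukin-12 and interleukin-23, was found almost entirely in mature DCs, the Ccr7+ Fscn1+ cells that carry antigen to lymph nodes. It had 330 UMIs in KO mature DCs and 243 UMIs in WT mature DCs, which was 94.8% of all Il12b UMIs in the KO library and 98.0% in the WT library. The summed level was 633 CPM (566 to 705) in KO mature DCs and 298 CPM (262 to 338) in WT mature DCs. This was a ratio of 2.13 (1.80 to 2.52), or 1.09 on the log2 scale. The share of mature DCs with an Il12b UMI did not follow that ratio. It was 35.0% in KO (21 of 60 cells) and 38.8% in WT (38 of 98 cells), and with every cell thinned to 2000 UMIs it was 19.6% in KO and 23.1% in WT.

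A few cells held much of the summed Il12b in both libraries. The highest KO cells held 117 and 69 UMIs and the highest WT cells held 55 and 29 UMIs. The 5 highest cells held 256 of the 330 UMIs (77.6%) in KO and 133 of the 243 UMIs (54.7%) in WT. Cells with 5 or more UMIs were 10 in KO and 15 in WT. Without the highest cell of each library the log2 ratio was 0.84, and without the 5 highest of each it was 0.15, with 74 UMIs left in KO and 110 in WT. Such a cut takes a larger share of the 60 KO than of the 98 WT mature DCs, which itself lowers the ratio. It therefore cannot tell whether the remaining cells differed. The Poisson interval takes UMIs as independent and does not hold this spread between cells.

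**Figure D1:**
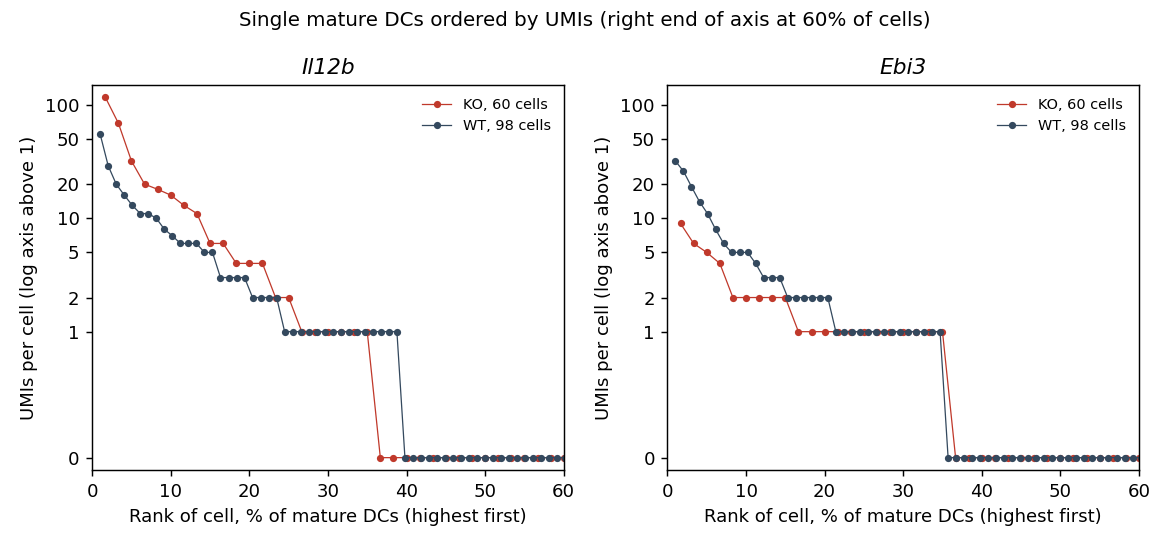
Il12b and Ebi3 UMIs in single mature DCs of the KO library (60 cells) and the WT library (98 cells), ordered from the highest cell, with the rank as a percent of the cells on the x axis, which ends at 60%, and UMIs per cell on the y axis, which is logarithmic above 1. Both curves reach 0 at about the same rank for each gene, while the highest KO cells held more Il12b (117 UMIs against 55 in WT) and fewer Ebi3 UMIs (9 against 32 in WT).

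Outside mature DCs Il12b was close to absent. The gene had no UMI in 189 KO and 178 WT cDC1s, where a floor of 3 cells is a share of 1.59% in KO and 1.69% in WT. This limits cells with a UMI, not cells that express the gene. In cDC2s 5 UMIs lay in 2 KO cells and 4 UMIs in 1 WT cell. Macrophages held 0 UMIs in KO and 1 UMI in WT, and monocytes held none in either library. In the KO library 1 CD8 T cell held 12 Il12b UMIs, and 1 other CD8 T cell held 1. The partner subunit Il12a, needed for interleukin-12, had 0 UMIs in the KO library and 1 UMI in the WT library, in a cDC2, and Il23a, the partner in interleukin-23, had 0 UMIs in KO and 2 UMIs in WT, both in CD4 T cells.

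Ebi3, which pairs with Il27 in interleukin-27 and with Il12a in interleukin-35, was found in antigen-presenting cells and in T cells. In mature DCs it differed the other way from Il12b. It had 46 UMIs and 88.2 CPM (64.6 to 118) in KO mature DCs, against 170 UMIs and 208 CPM (178 to 242) in WT mature DCs, a ratio of 0.42 (0.30 to 0.59). The share of positive cells was again alike, at 35.0% in KO (21 of 60 cells) and 34.7% in WT (34 of 98 cells). The highest cell held 9 UMIs in KO, and the highest WT cells held 32 and 26. Without the 5 highest cells of each library the log2 ratio was -1.01, beside -1.24 with all cells. Here too the cut takes a larger share of the KO than of the WT mature DCs, which itself lowers the ratio. The value of -1.01 therefore cannot tell how far the Ebi3 difference rests on the highest cells.

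In mature DCs 3 members reached 50 CPM in 1 library, the minimum for a call, and of these Il12b was called higher and Ebi3 lower in KO. A ratio was called when it was 1.5-fold or more and its interval did not include 1. Over all 2547 genes tested in mature DCs, 4.28% were called higher and 4.75% lower. The third, Il12rb2, was at 57.5 CPM in KO and 40.4 CPM in WT (ratio 0.84 to 2.41). Both Il12b and Ebi3 were found in 5 of 60 KO mature DCs, where independent shares would give 7.35, and in 17 of 98 WT mature DCs, where they would give 13.2. Beside these results, the summed T cell markers were at 5.75 CPM in KO and 87.0 CPM in WT mature DCs, and the summed cDC1 markers at 992 CPM in KO and 544 CPM in WT. The summed monocyte markers were at 78.6 CPM in KO and 321 CPM in WT, with 2 and 4 of the 7 at 0. None of the 4 T cell markers was at 0 in WT and Cd3e was at 0 in KO, while none of the 7 cDC1 markers was at 0 in either. Irf8, itself on the cDC1 list, made up 467 of the 517 UMIs of that list in KO and 407 of 444 in WT. Their part in the results was not tested.

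The stretch just before each gene's start is shown for Il12b and Ebi3, the members that differed in opposite directions within 1 class. Il12b lies at chr11:44400063-44414033 on the plus strand and Ebi3 at chr17:55952640-55957022 on the plus strand (GRCm38, the mm10 assembly, GENCODE gene bounds). The sequences are the 250 bases before the RefSeq start, at chr11:44399813-44400062 and chr17:55952373-55952622 on GRCm38.p6, with matches to the searched motifs in capitals.
Il12b: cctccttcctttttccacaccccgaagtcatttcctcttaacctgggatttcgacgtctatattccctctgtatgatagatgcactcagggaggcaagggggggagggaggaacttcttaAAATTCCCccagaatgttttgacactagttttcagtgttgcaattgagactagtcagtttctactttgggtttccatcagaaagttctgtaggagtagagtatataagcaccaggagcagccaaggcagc
Ebi3: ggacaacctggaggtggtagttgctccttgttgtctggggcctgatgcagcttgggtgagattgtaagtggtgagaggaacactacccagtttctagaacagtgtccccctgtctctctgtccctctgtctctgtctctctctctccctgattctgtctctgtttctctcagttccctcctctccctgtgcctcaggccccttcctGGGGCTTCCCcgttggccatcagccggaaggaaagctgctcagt
Motifs searched on both strands were NF-kB (its usual degenerate form), an NF-kB-type motif GGGAATTT, the interferon-stimulated response element, AP-1 TGANTCA, STAT TTCNNNGAA and TCF/LEF CTTTGA. GGGAATTT was added after the Il12b sequence had been read. Il12b held it on the minus strand, 130 to 123 bases before the start, and 0.843% of 32851 promoter windows of this length hold it. Ebi3 held the full NF-kB form 44 to 35 bases before the start, which 3.90% of windows hold. No other motif of the list matched either window, and the matches overlapped no other match.

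Ebi3 was broadly detected in the other antigen-presenting cells. It was at 49.99 CPM in KO and 49.05 CPM in WT cDC1s (ratio 0.81 to 1.29), 83.4 CPM in KO and 59.5 CPM in WT cDC2s (0.97 to 2.05), 61.2 CPM in KO and 47.6 CPM in WT macrophages (0.81 to 2.05), and 37.6 CPM in KO and 50.9 CPM in WT monocytes (0.37 to 1.62). All 4 intervals include 1. In the WT library mature DCs stood above every other class with 50 or more cells, whereas in KO their interval overlapped those of cDC2s (68.5 to 101), CD4 T cells (53.6 to 82.9) and macrophages (45.3 to 80.9). In macrophages 1 member passed 50 CPM and was not called, beside 6.05% of 2891 genes called higher and 6.78% called lower. In cDC1s no member passed 50 CPM in these libraries, Ebi3 lying just under it, beside 1.65% of 2544 genes called higher and 2.91% lower.

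Among CD4 clusters with 20 or more cells in each library Ebi3 was highest in Treg-like cells, a cluster led by Foxp3, with 111 CPM in KO (26 UMIs, 39.5% of 38 cells) and 133 CPM in WT (53 UMIs, 37.9% of 58 cells). In the CD4 cells of the cluster led by Cd40lg, which encodes CD40 ligand, it was at 23.1 CPM in KO and 21.0 CPM in WT. CD8 T cells held 8 Ebi3 UMIs in KO and 4 in WT, at 3.96 CPM and 3.24 CPM. T cells without a co-receptor UMI were at 16.3 CPM in KO and 55.3 CPM in WT (0.12 to 0.67), with 9 UMIs in KO and 22 in WT.

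Il27, the other interleukin-27 subunit, was rare and lay mostly in the KO library, with 47 UMIs in 28 KO cells and 3 UMIs in 3 WT cells. Monocytes held 29 UMIs in KO (19 of 92 cells, 20.7%) and 2 UMIs in WT (2 of 28 cells, 7.14%), at 32.1 CPM in KO and 9.25 CPM in WT. The ratio of 3.47 had an interval of 0.88 to 30.03, which includes 1. Macrophages held 8 UMIs in 6 KO cells and none in WT, and the KO level was 2.38-fold a floor of 3 UMIs over the WT class. In cDC1s 9 UMIs lay in 2 KO cells, with none in WT, and the KO level was 2.77-fold the same floor. These folds leave out the counting error of the KO UMIs and are not lower bounds. Il27 and Ebi3 were both found in 3 of 92 KO monocytes, where independent shares would give 6.196, and in 0 of 28 WT monocytes. Il27 lies at chr7:126589010-126594941 on the minus strand.

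Il18, at chr9:50554827-50581840 on the plus strand, was low in every class. Most of its UMIs came from monocytes (15.5 CPM in KO and 23.1 CPM in WT), macrophages (8.74 CPM in KO and 11.2 CPM in WT) and cDC1s (8.86 CPM in KO and 6.86 CPM in WT), and each ratio interval includes 1. The cDC1s held 51.9% of the 54 KO UMIs and 54.1% of the 37 WT UMIs. Mature DCs had 0 UMIs in KO and 1 in WT, and CD4 T cells and NK-like cells had none. Il18bp, a secreted decoy that binds interleukin-18, was at 53.7 CPM in KO and 53.9 CPM in WT mature DCs, 35.0 CPM in KO and 47.6 CPM in WT macrophages, and 35.4 CPM in KO and 41.6 CPM in WT monocytes. In cDC2s Il18bp had 35 UMIs and 26.8 CPM in KO and 3 UMIs and 4.25 CPM in WT, a ratio interval of 1.99 to 32.0, and in cDC1s it was at 6.01 CPM in KO and 2.40 CPM in WT (1.01 to 7.05). T cells had 2.48 CPM in KO and 1.62 CPM in WT in the CD8 class, and 3.95 CPM in KO and 3.03 CPM in WT in the CD4 class.

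**Figure D2:**
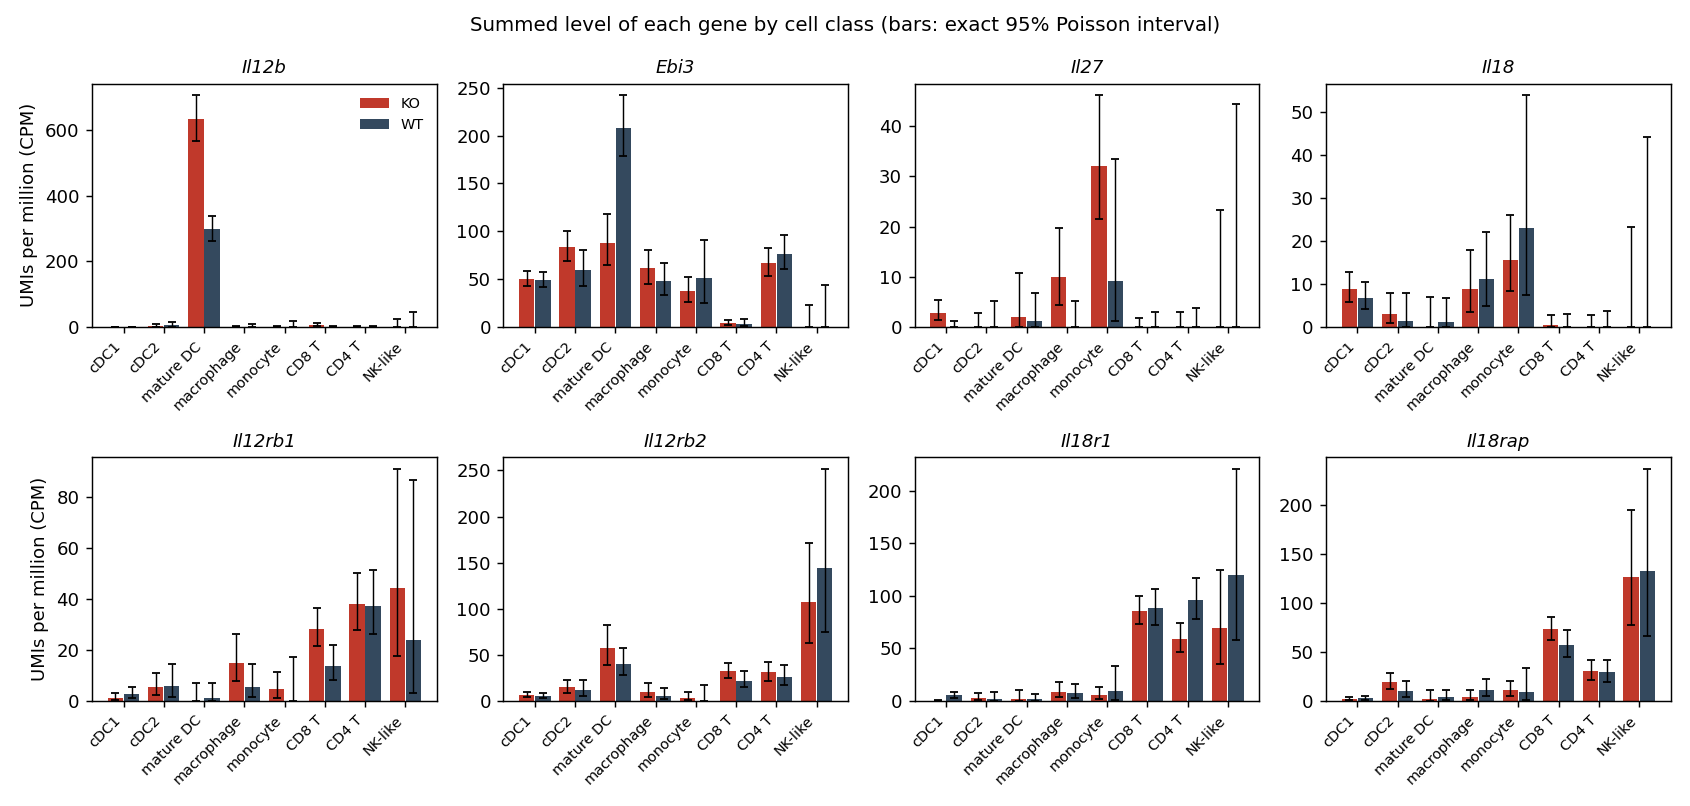
Summed level of each member by cell class in CPM (y axis, linear from 0, its range differing between panels), with KO bars left of WT bars and exact 95% Poisson intervals. Il12b stood at 633 CPM in KO and 298 CPM in WT mature DCs and near 0 elsewhere, whereas Il18r1 and Il18rap were highest in T cells and NK-like cells, and Ebi3 was spread over antigen-presenting cells and CD4 T cells.

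Il12rb1, the chain shared by the interleukin-12 and interleukin-23 receptors, lies at chr8:70808449-70821424 on the plus strand. It was at 28.2 CPM (57 UMIs) in KO and 13.8 CPM (17 UMIs) in WT CD8 T cells, a ratio of 2.05 (1.17 to 3.76), but it did not reach 50 CPM in either. Unthinned, 18.5% of KO and 9.47% of WT CD8 T cells had a UMI, whereas thinned to 2000 UMIs the shares were 2.82% in KO and 3.77% in WT. CD4 T cells were at 37.9 CPM in KO and 37.4 CPM in WT (0.65 to 1.60). Among CD4 clusters with 20 or more cells in each library it was highest in Treg-like cells, with 93.96 CPM in KO and 55.2 CPM in WT (22 UMIs each, 0.90 to 3.22). NK-like cells had 44.1 CPM in KO and 24.0 CPM in WT, from 7 and 2 UMIs, and macrophages had 14.99 CPM in KO and 5.60 CPM in WT (0.81 to 11.4).

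Il12rb2, the chain that makes the interleukin-12 receptor high-affinity and recruits STAT4, was highest in NK-like cells of the classes with 10 or more cells in each library, at 107 CPM in KO and 144 CPM in WT (0.34 to 1.71). Mature DCs came next among these classes, then CD8 T cells at 32.2 CPM in KO and 21.9 CPM in WT (0.93 to 2.40) and CD4 T cells at 30.8 CPM in KO and 26.3 CPM in WT (0.70 to 2.01), and those T cell intervals overlap one another. The mean of each cell's CPM gave a log2 ratio of 1.34 for CD8 T cells, beside 0.56 from summed counts, and -0.53 for CD4 T cells, beside 0.23. In the CD8 cells of the cluster led by Gzmk, which encodes a granzyme, Il12rb2 had 19 UMIs and 105 CPM in KO and 10 UMIs and 34.3 CPM in WT, a ratio interval of 1.35 to 7.34. A UMI was found in 34.1% of 41 KO cells and 8.82% of 68 WT cells of that cluster, and in 22.5% of KO and 4.76% of WT cells after thinning. The other CD8 clusters differed less, with 20.6 CPM in KO and 17.0 CPM in WT cycling cells and 40.3 CPM in KO and 27.9 CPM in WT cells of the cluster led by Ccl1, both with intervals that include 1. The difference between clusters was not tested. In CD4 T cells Il12rb2 was at 47.0 CPM in KO (11 UMIs) and 12.5 CPM in WT (5 UMIs) Treg-like cells (1.20 to 13.7), and at 15.4 CPM in KO (4 UMIs) and 45.5 CPM in WT (13 UMIs) cells of the Cd40lg-led cluster (0.08 to 1.09). Thinned shares in Treg-like cells were 2.94% in KO and 1.79% in WT.

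Il18r1, the ligand-binding chain, lies at chr1:40465552-40500854, next to Il18rap at chr1:40515362-40551705, both on the plus strand. CD8 T cells had 85.7 CPM in KO and 88.4 CPM in WT (173 and 109 UMIs, 0.76 to 1.24), the ratio nearest to 1 of the 4 receptor chains in that class. The mean of each cell's CPM gave a log2 ratio of -0.45 there, beside -0.04 from summed counts, and thinned shares were 9.04% in KO and 15.7% in WT. CD4 T cells had 59.2 CPM (75 UMIs) in KO and 95.9 CPM (95 UMIs) in WT, a ratio of 0.62 (0.45 to 0.84). In CD4 T cells 2 members reached 50 CPM, of which Il18r1 was called lower and none higher, beside 5.07% of 3038 genes called higher and 5.50% lower. The other, Ebi3, was at 67.1 CPM in KO and 76.7 CPM in WT. In CD8 T cells 2 members passed 50 CPM and none was called, beside 6.36% of 2735 genes called higher and 5.56% lower.

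Il18r1 differed between clusters of CD4 T cells, whose shares differed between the libraries. Of the CD4 clusters with 20 or more cells in each library the Cd40lg-led cells were the highest, at 173 CPM in KO and 199.6 CPM in WT (0.57 to 1.31, log2 ratio -0.20), Treg-like cells were at 29.9 CPM in KO and 65.3 CPM in WT (0.17 to 1.08), and naive-like CD4 cells had 1 UMI in KO and 3 in WT. The Cd40lg-led cluster made up 68 of 176 KO and 82 of 176 WT CD4 T cells, and Treg-like cells 38 in KO and 58 in WT. Without cycling cells the log2 ratio was -0.48, by the mean of each cell's CPM it was -0.37, and with CD4 cells defined by cluster it was -0.30, and each of these is below 1.5-fold. T cells without a co-receptor UMI were at 54.3 CPM in KO and 98.0 CPM in WT (0.33 to 0.91). In cDC1s Il18r1 had 0 UMIs in KO and 15 UMIs in WT. The WT UMIs lay in 8 of 178 cells, with 6 of them in 1 cell and 12 in the top 5 cells. The WT level was 5.42-fold a floor of 3 UMIs over the KO class. That fold leaves out the counting error of the WT UMIs and is not a lower bound. The summed T cell markers in cDC1s were at 71.2 CPM in KO and 203 CPM in WT, with none of the 4 at 0, and their part in that difference was not tested.

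Il18rap, the accessory chain, was highest in NK-like cells of the classes named here. NK-like cells had 126 CPM in KO and 132 CPM in WT (0.44 to 2.21), CD8 T cells 72.8 CPM in KO and 56.8 CPM in WT (0.96 to 1.73) and CD4 T cells 29.98 CPM in KO and 29.3 CPM in WT (0.62 to 1.72). Shares of CD8 T cells with a UMI were 13.0% in KO and 9.43% in WT after thinning, beside 0% and 0.568% of cDC1s. In cycling CD8 T cells it had 81 UMIs and 75.9 CPM in KO and 11 UMIs and 26.8 CPM in WT, a ratio interval of 1.503 to 5.90, and a UMI in 36 of 45 KO cells and 8 of 20 WT cells. After thinning the shares were 15.6% in KO and 5.00% in WT. The log2 ratio of 1.503 was 0.46 when every deposited barcode was clustered, with 59 and 19 UMIs in the matching cells. The cluster led by Ccl1, with Xcl1 and Prf1 among its leading genes, had 97.8 CPM in KO and 99.8 CPM in WT (0.60 to 1.65), and the Gzmk-led cluster had 71.6 CPM in KO and 82.4 CPM in WT (0.41 to 1.78). Among antigen-presenting cells cDC2s had 19.1 CPM in KO and 9.92 CPM in WT (0.81 to 5.28).

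**Figure D3:**
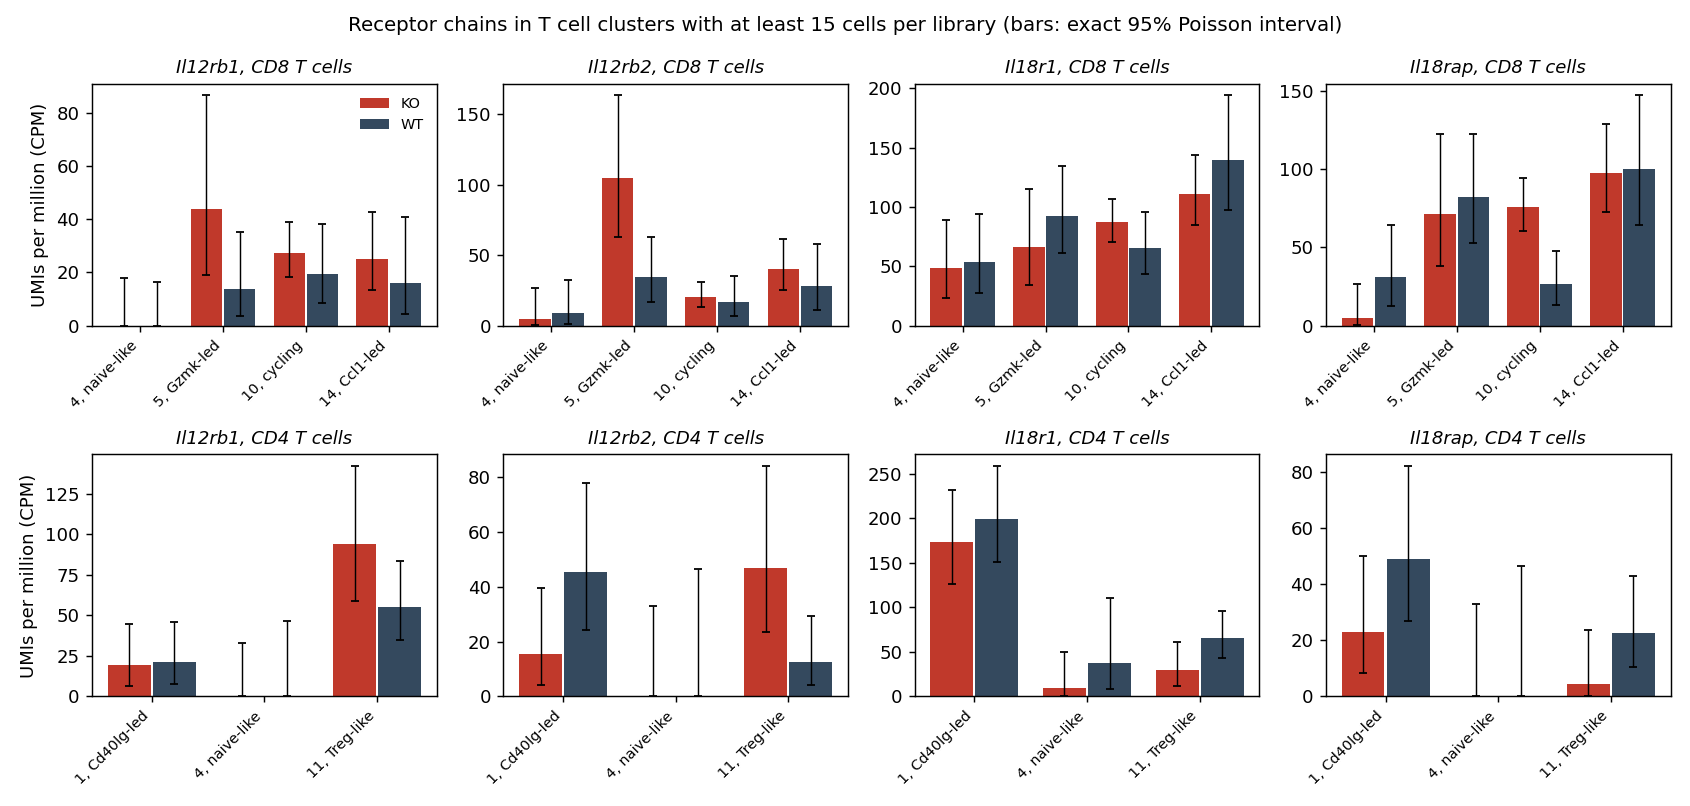
Receptor chains in CPM (y axis, linear from 0, its range differing between panels) in CD8 T cells (top) and CD4 T cells (bottom) of single clusters, with KO bars left of WT bars and exact 95% Poisson intervals. Naive-like cells were near 0 for Il12rb1 and Il12rb2, Il12rb2 in Gzmk-led CD8 cells was at 105 CPM in KO and 34.3 CPM in WT, and Il18r1 was highest in Cd40lg-led cells of the CD4 clusters plotted.

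The make-up of the CD8 T cells differed between the libraries, so class values mix levels and make-up. The cycling cluster held 45 of 184 KO and 20 of 169 WT CD8 T cells, the Ccl1-led cluster 42 in KO and 19 in WT, the Gzmk-led cluster 41 in KO and 68 in WT, and the naive-like cluster 51 in KO and 49 in WT. Naive-like CD8 cells had no Il12rb1 UMI in either library, 1 Il12rb2 UMI in KO and 2 in WT, and 48.3 CPM of Il18r1 in KO and 53.7 CPM in WT. Summed antigen-presenting cell transcripts, a list of 6 genes with none at 0, were at 447 CPM in KO and 1545 CPM in WT CD8 T cells. Leaving out T cells with over 0.5% of such UMIs gave a log2 ratio of 1.27 for Il18rap in cycling CD8 cells and 1.61 for Il12rb2 in Gzmk-led cells.

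The 250 bases before the start are shown for Il12rb2 and Il18rap, the receptor genes whose ratio interval did not include 1 in a CD8 cluster, because Tcf7 encodes TCF1, a factor that binds TCF/LEF motifs. Il12rb2 lies at chr6:67291318-67376188 on the minus strand. The sequences are at chr6:67376189-67376438 (read on the minus strand) and chr1:40515112-40515361 (plus strand) on GRCm38.p6 from RefSeq, 5′ to 3′, with motif matches in capitals.
Il12rb2: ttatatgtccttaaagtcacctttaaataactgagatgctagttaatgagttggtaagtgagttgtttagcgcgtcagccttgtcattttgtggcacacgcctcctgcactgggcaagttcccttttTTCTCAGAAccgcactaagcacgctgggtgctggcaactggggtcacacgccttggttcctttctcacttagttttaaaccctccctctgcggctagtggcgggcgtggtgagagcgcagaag
Il18rap: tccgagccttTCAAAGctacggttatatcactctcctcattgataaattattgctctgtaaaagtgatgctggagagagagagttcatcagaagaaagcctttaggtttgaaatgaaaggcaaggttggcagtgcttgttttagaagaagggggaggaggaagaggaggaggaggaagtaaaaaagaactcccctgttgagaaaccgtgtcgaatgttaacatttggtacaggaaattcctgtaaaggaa
Il18rap held TCF/LEF CTTTGA on the minus strand, 240 to 235 bases before the start, which 13.8% of the 32851 windows hold. Il12rb2 held STAT TTCNNNGAA 123 to 115 bases before the start, a motif that reads the same on both strands and that 7.02% of windows hold. Neither window held another motif of the list. A match is a stretch of letters and not a shown site. The RefSeq table held 6 of the 8 members.

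**Figure D4:**
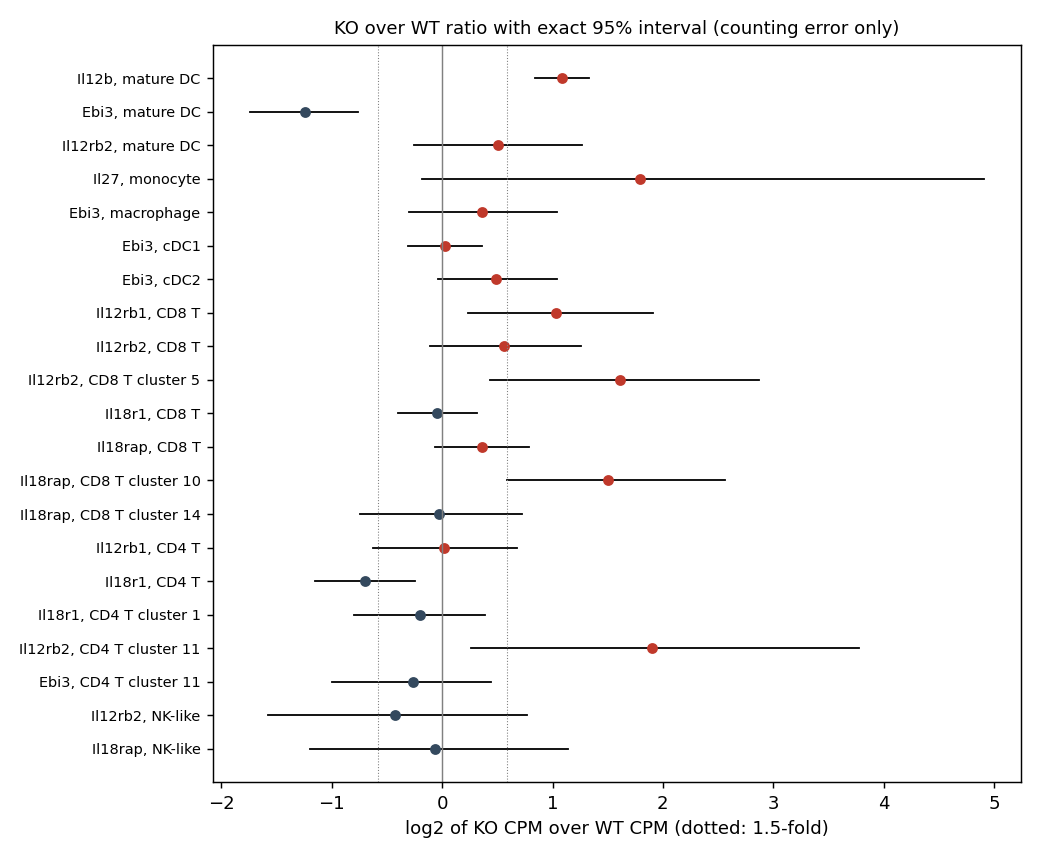
KO over WT ratio of member levels on a log2 scale (x axis) with exact 95% intervals from counting error, for selected classes and clusters from top to bottom. Red points lie above 0 and blue points below it, and the dotted lines mark 1.5-fold. The interval of Il12b in mature DCs (ratio 1.80 to 2.52) lies above 0, that of Ebi3 in mature DCs (0.30 to 0.59) below it, and those of Il18r1 and Il18rap in CD8 T cells include 0.

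In unthinned T cells the chains of a receptor were mostly found together more often than independent shares would give for the pairs given here. Il12rb1 with Il12rb2 in WT CD4 T cells was about as frequent as independent shares would give. Il18r1 and Il18rap were both found in 43 of 184 KO CD8 T cells (28.8 if independent) and 26 of 169 WT CD8 T cells (14.5 if independent), and Il12rb1 with Il12rb2 in 13 KO cells (8.13) and 5 WT cells (2.08). After thinning to 2000 UMIs the Il18r1 and Il18rap pair was found in 2 of 177 KO cells (2.08) and 7 of 159 WT cells (2.36), and the Il12rb1 and Il12rb2 pair in none. In CD4 T cells the Il18r1 and Il18rap pair was found in 16 KO cells (7.98) and 13 WT cells (8.32), and after thinning in 4 of 166 KO cells (1.01) and 4 of 160 WT cells (1.69). The Il12rb1 and Il12rb2 pair was found in 8 KO (4.09) and 3 WT (2.91) CD4 T cells, and after thinning in none. Deeper cells show more of every gene, so these counts are a description.

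Transcripts of both chains of the interleukin-27 receptor were found in T cells of both libraries, as class sums and not as chains in the same cells. Il27ra was at 42.6 CPM in KO and 45.4 CPM in WT CD8 T cells (0.66 to 1.34), 49.7 CPM in KO and 56.5 CPM in WT CD4 T cells (0.60 to 1.28), and 69.4 CPM in KO and 60.02 CPM in WT NK-like cells. Of the CD8 clusters with 19 or more cells in each library, naive-like cells had the most Il27ra, at 116 CPM in KO and 71.6 CPM in WT (0.82 to 3.26). The cDC1s, cDC2s, mature DCs, macrophages and monocytes had between 1.03 and 11.2 CPM. Il6st, the shared signal-transducing chain, was at 36.2 CPM in KO and 12.6 CPM in WT macrophages (1.33 to 6.91) and at 18.1 CPM in KO and 32.3 CPM in WT CD4 T cells (0.31 to 0.99). Il23r had 5 UMIs in KO and 6 in WT, of which 1 and 5 lay in mature DCs.

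Genes downstream of these receptors were taken from lists. In CD8 T cells 6 of 10 target genes had at least 50 CPM, of which 1 was called higher and 1 lower, with a median log2 ratio of -0.30 beside 0.09 over all tested genes. Ifng, the interferon-gamma gene, was at 238 CPM in KO and 98.2 CPM in WT (1.98 to 2.98), and Socs3, a feedback inhibitor of STAT3 signalling, at 25.8 CPM in KO and 67.3 CPM in WT (0.27 to 0.55). Irf1 was at 113 CPM in KO and 148 CPM in WT, and Gbp2 at 54.5 CPM in KO and 69.0 CPM in WT, neither called. Of 4 signalling genes measured, Stat3 was called higher, at 268 CPM in KO and 177 CPM in WT (1.29 to 1.78), while Stat4, which interleukin-12 activates, was at 107 CPM in KO and 110 CPM in WT. The median of those 4 was 0.04. Casp1, 1 of 2 measured genes of interleukin-18 maturation, was called lower at 37.7 CPM in KO and 56.8 CPM in WT (0.47 to 0.93). Of 5 genes measured from the inducer list, made for antigen-presenting cells, Irf8 and Nfkb2 were called higher and Ifngr1 lower. The median of those 5 was 0.38. Over all genes tested in CD8 T cells 6.36% were called higher and 5.56% lower.

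In CD4 T cells 7 targets were measured, and Ifng was called higher, at 109 CPM in KO and 32.3 CPM in WT (2.28 to 5.12), with a list median of -0.31 beside -0.02 over all tested genes. None of the other 6 was called. Of the 138 KO Ifng UMIs, 59 lay in 20 CD4 cells of the Ccl1-led cluster, which had 4 WT CD4 cells, and 52 in Treg-like cells. Cd40lg-led CD4 cells were at 23.1 CPM of Ifng in KO and 24.5 CPM in WT. Over all 3038 genes tested in CD4 T cells 5.07% were called higher and 5.50% lower. None of 4 signalling genes was called, among them Stat4 at 114 CPM in KO and 122 CPM in WT, and none of 3 maturation genes. Of 7 inducer genes Relb was called lower, at 70.2 CPM in KO and 108 CPM in WT. The partner genes had 1 measured member in CD4 T cells, Il27ra, and 1 in mature DCs, Il18bp, and neither was called.

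Among genes that induce interleukin-12 in antigen-presenting cells, 12 of 15 were measured in mature DCs, of which 2 were called higher and 1 lower, with a median log2 ratio of 0.18 beside 0.01 over all tested genes. Irf8, a factor of cDC1s that binds the Il12b promoter, was at 896 CPM in KO and 499 CPM in WT (1.57 to 2.06). Cd40, the receptor for CD40 ligand, was at 455 CPM in KO and 303 CPM in WT (1.25 to 1.80). Ifngr1, a chain of the interferon-gamma receptor, was at 57.5 CPM in KO and 114 CPM in WT (0.32 to 0.77). Rel, a subunit of NF-kB, was at 343 CPM in KO and 436 CPM in WT and was not called. None of 7 signalling genes was called in mature DCs. Pycard, an inflammasome adaptor, was called lower at 42.2 CPM in KO and 80.9 CPM in WT (0.31 to 0.86), as 1 of 3 measured maturation genes. Of 5 genes measured from the target list, made for T cells, Gbp2 was called higher and Gadd45g lower. Over all genes tested in mature DCs 4.28% were called higher and 4.75% lower.

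In cDC1s, which held no Il12b, Cd40 was called higher at 51.3 CPM in KO and 22.6 CPM in WT (1.69 to 3.06), and Ifngr1 lower at 191 CPM in KO and 328 CPM in WT (0.53 to 0.65), of 10 inducer genes measured with a median of 0.03. Irf8 was at 1735 CPM in KO and 1795 CPM in WT cDC1s. Of 4 targets from the list made for T cells, Gbp2 and Socs1 were called higher and Socs3 lower. None of 5 signalling or 2 maturation genes was called. The median of the 4 targets was 0.51, beside 0.03 over all tested genes, of which 1.65% were called higher and 2.91% lower. The summed mature DC markers in cDC1s were at 116 CPM in KO (Fscn1 at 0) and 52.1 CPM in WT (none of the 7 at 0), and their part in these values was not tested. In macrophages 9 inducers were measured, of which Batf3 was called higher and Irf8, Ifngr1 and Relb lower. Irf8 there was at 182 CPM in KO and 358 CPM in WT (0.41 to 0.63), the opposite direction from mature DCs, a difference that was not tested. Irak2, a kinase of the interleukin-18 receptor pathway, was called lower in macrophages at 43.7 CPM in KO and 93.8 CPM in WT (0.30 to 0.71), as 1 of 5 signalling genes. Of 6 targets from the list made for T cells, Socs1 was called higher and Gadd45b lower, and none of 3 maturation genes was called. Median log2 ratios in macrophages were -0.08 for inducers, 0.07 for signalling, 0.50 for targets and 0.37 for maturation genes. Over all genes tested in macrophages the median was -0.004, and 6.05% were called higher and 6.78% lower. Neutrophil markers summed to 523 CPM in KO and 23.8 CPM in WT macrophages, with 2 and 3 of the 5 at 0. There the cDC1 markers, which include Irf8, summed to 428 CPM in KO (Xcr1 at 0) and 732 CPM in WT (none of the 7 at 0), and the monocyte markers to 2980 CPM in KO and 1840 CPM in WT, with none of the 7 at 0. Their part in these values was not tested.

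Genes with the most similar pattern were found by Pearson correlation of log2(CPM + 10) over 18 profiles, the named classes with at least 10 cells in each library, among 5769 genes. Profiles share their 2 libraries, so the values are a description. Il12b was most like Tmem150c (0.98), Nudt17 (0.98) and Slc27a3 (0.98), and Ebi3 most like Ass1 (0.91), Leprot (0.91) and Gm5424 (0.90). Il12rb2 was most like Gm12216 (0.90), Sdf2 (0.90) and Stat4 (0.89). Il18r1 was most like Ikzf3 (0.98) and Cd96 (0.98), and Il18rap most like Fasl (0.97), Ctla2a (0.96) and Txk (0.96). Il12rb1, Il27 and Il18 were below 50 CPM in every profile and were given no such genes.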

How the data were processed

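Each library was deposited as a matrix of unnormalised UMI counts, genes by cell barcodes, made by the authors with Cell Ranger 1.3 on mm10 per the submitters' processing notes, while the file headers name software version 3.0.2. The annotation and the intron setting are not given in the sources used here. Each library came from 1 channel loaded with pooled cells of 3 tumors. A barcode was kept if it had 500 or more UMIs, 300 or more genes detected and no more than 10% of its UMIs from mitochondrial genes, which left out 133 KO and 132 WT barcodes. Scrublet marked 3 KO and 5 WT barcodes as doublets, which were removed, and 1 cluster of 12 KO and 21 WT cells with T cell and cDC1 markers in the same cells was left unnamed. Cells were log-normalised and clustered with scanpy 1.11.5 (2000 variable genes without the members, 6 partner genes and Tcf7, 30 components, 15 neighbours, Leiden resolution 1) into 17 clusters, which were named from marker genes. T cells were split by UMIs of Cd4, Cd8a and Cd8b1.

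For each class the UMIs of a gene were summed and scaled to CPM with exact Poisson intervals, and KO over WT ratios were given exact conditional binomial intervals, both at 95% (scipy 1.17.1). Intervals and floors of 3 counts cover counting error only, and not the spread between cells or mice. Classes with at least 50 cells in each library were used for calls across genes. Shares of cells were compared after thinning each cell to 2000 UMIs in 1 seeded draw, which left out shallower cells. The ratio interval, the call and the thinning were tested on simulated counts that held no spread between cells. Doublet removal, clustering and naming were not tested in this way. Genes were named where their interval lay farthest from 1 within the lists of partners, signalling, maturation, targets and inducers, and the likeness measure named up to 3 genes per member, of which 1 is not reported here. The members, lists and markers were chosen with earlier results of these data known. Alternatives were other filters on cells and CPM, folds, clusterings, depths and class definitions.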

Additional observations from a re-analysis of the deposited data

How the results depend on the processing

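No paired analysis was possible because each group is 1 library, and no replicate could be left out. Of 211 recomputed ratios 199 moved by less than their counting interval, 12 moved further, and none that had been called changed direction. The log2 ratio of Il12b in mature DCs, 1.09 as reported, was 0.77 by the mean of each cell's CPM, 0.84 without each library's top cell, 0.80 with no cell filter, and 0.15 without the 5 top cells, an alternative chosen after seeing the data. Leaving out the same number of top cells takes a larger share of the KO than of the WT mature DCs. Il12rb2 in Gzmk-led CD8 T cells was 3.89 without the 5 top cells, with 9 UMIs left in KO and 1 in WT. Ebi3 in mature DCs stayed between -1.26 and -0.96 in the alternatives run. Of 96 recomputed shares of cells 47 moved, and depth limits every share. The number of genes called at 20 CPM, at 200 CPM and at 2-fold was 354, 34 and 30 higher and 359, 26 and 32 lower in CD8 T cells, 277, 22 and 30 higher and 319, 24 and 19 lower in CD4 T cells, 118, 6 and 10 higher and 190, 15 and 23 lower in cDC1s, 181, 22 and 29 higher and 215, 20 and 39 lower in mature DCs, and 294, 45 and 49 higher and 326, 34 and 70 lower in macrophages. At 20 CPM the median log2 ratio was 0.046 for inducers in CD8 T cells, 0.16 for targets in cDC1s and 0.11 for maturation genes in macrophages. By the mean of each cell's CPM it was 0.11 for targets in CD4 T cells, where summed counts gave -0.31, and 0.34 for signalling and 0.080 for targets in macrophages. More genes pass the lower CPM minimum by construction, and the cause of the other moves was not tested.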

Other observations

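Mature DCs with an Il12b UMI were set beside those without one within each library, as a description of cells chosen by that gene and after the values were seen. The cells with Il12b were deeper in the KO library (median 9977 UMIs, against 7314 in cells without) and in the WT library (8503, against 7594.5). Irf8 was at 1217 CPM in KO cells with Il12b and 695 CPM in KO cells without, and at 783 CPM in WT cells with Il12b and 305 CPM in WT cells without. Ccl22, a chemokine gene of mature DCs, was at 1157 CPM and 720 CPM in those KO cells and at 752 CPM and 303 CPM in those WT cells. Cd86, a costimulatory ligand, went the other way, with 79.8 CPM with Il12b and 280.5 CPM without in KO, and 99.7 CPM with and 192 CPM without in WT. Il4i1 was also lower in cells with Il12b, at 643 CPM and 963 CPM in KO and at 429 CPM and 922 CPM in WT. Other genes of the cDC1 and mature DC marker lists did not all follow Irf8 and Ccl22. With and without Il12b, Xcr1 was at 4.99 and 21.8 CPM in KO and 6.04 and 2.06 CPM in WT. Naaa was at 4.99 and 40.5 CPM in KO and 9.06 and 8.25 CPM in WT. Socs2 was at 369 and 732 CPM in KO and 692 and 592 CPM in WT, and Ccr7 at 4014 and 2559 CPM in KO and 3451 and 3577 CPM in WT.

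Effector genes were read in the same T cell clusters as the receptors. Ifng was at 291 CPM in KO and 139 CPM in WT cycling CD8 T cells, and at 299 CPM in KO and 140 CPM in WT cells of the Ccl1-led CD8 cluster. Gzmk-led CD8 cells, the cluster where Il12rb2 had its interval above 1, had 12 Ifng UMIs in KO and 27 in WT. Their levels were 66.1 CPM in KO and 92.7 CPM in WT, with overlapping intervals. In Treg-like CD4 cells Ifng was at 222 CPM in KO and 35.1 CPM in WT, whereas Cd40lg-led CD4 cells were at 23.1 CPM in KO and 24.5 CPM in WT. Prf1, which encodes perforin, was at 1072 CPM in KO and 471 CPM in WT cells of the Ccl1-led CD8 cluster, and at 21.4 CPM in KO and 87.8 CPM in WT Treg-like CD4 cells. Tbx21, a transcription factor of type 1 T cells, was at 65.6 CPM in KO and 41.4 CPM in WT cycling CD8 T cells and at 64.1 CPM in KO and 60.2 CPM in WT Treg-like CD4 cells, with overlapping intervals in both.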
